A study of Mus musculus with 12 samples.

Results

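The 36 genes described here encode proteins of the presynaptic terminal, the part of a neuron that stores transmitter in synaptic vesicles and releases it, apart from Dlgap1, a scaffold of the postsynaptic side that was listed with them. They were chosen by name and function. The set held 6 SNARE proteins and complexins, 5 synaptotagmins, 7 synapsins and vesicle membrane proteins, and 3 vesicular glutamate transporters. It also held 8 RAB3 and active zone proteins, 2 synucleins, 2 vesicle retrieval proteins and 3 adhesion and scaffold proteins. All 36 were among the 47480 gene symbols of the authors' table of estimated counts, and all 36 passed the filter on low counts.

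RNA was sequenced from the trigeminal nerve, the sensory nerve of the face, in 12 mouse samples. All 12 were Nf1 flox/flox, so the controls too carried floxed alleles of Nf1, the gene for neurofibromin, which restrains RAS. The 6 normal nerve samples were PostnCre- and the 6 plexiform neurofibroma samples were PostnCre+. In the second group Cre recombinase was driven by Postn, the periostin gene, a driver used to reach cells of the Schwann cell lineage. Plexiform neurofibromas are benign tumours in which Schwann cells, fibroblasts and other cells grow around axons. The labels give no treatment and no age, and they do not say that each sample came from a separate animal. So a p-value here reflects the variation among these samples only, and that variation may be technical.

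Transmitter release runs through a cycle. A vesicle is filled by a transporter, tethered at the active zone, primed by SNARE proteins and fused when calcium binds a synaptotagmin, after which its membrane is retrieved by endocytosis. Most neurons of the trigeminal nerve, though not all, are sensory neurons that use glutamate and have their cell bodies in the trigeminal ganglion. They transcribe these genes in the cell body and send the proteins along the axon to distant terminals. Levels below are counts normalized to library size (CPM), with the sizes scaled by TMM, a correction for differences in RNA composition. Differences are log2 fold changes of plexiform neurofibroma over normal nerve, with p-values adjusted over all genes tested.

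Library totals ran from 14160025 to 19989351 counts. The mean level of Nf1 was 130.8 ± 35.8 CPM in normal nerve against 83.5 ± 8.01 CPM in plexiform neurofibroma (SD, n = 6 each), and it fell by 0.65 log2 (SE 0.163, edgeR adjusted p = 0.0179). Its ranges, 85.4 to 172.9 CPM and 69.4 to 92.7 CPM, overlapped, and 4 tumour libraries lay inside the normal range. Sensory neuron genes were measured in every library, and the 14 listed ones summed to between 1943 and 4431 CPM in normal nerve and between 2673 and 4021 CPM in plexiform neurofibroma. Schwann cell genes were measured in every library too. The 12 listed ones summed to 5570 to 15562 CPM in normal nerve and to 14162 to 24351 CPM in plexiform neurofibroma, and 6 of the 12 rose. Of 6 fibroblast genes 5 rose, with sums of 181.6 to 1247 CPM and 1462 to 3428 CPM. Normal nerve replicate 2 gave the normal minimum of both these lists and the highest sensory neuron sum. The next lowest normal sums were 9254 CPM for Schwann cell genes (replicate 4) and 916.5 CPM for fibroblast genes (replicate 5). In bulk RNA, fewer cells of a type and less RNA per cell cannot be told apart.

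Normal nerve replicate 6 stood apart. Its 16 listed genes of central nervous system (CNS) neurons summed to 1004 CPM, against 176.7 to 238.4 CPM in the other 5 normal libraries and 134.7 to 196.4 CPM in the tumours. Its 12 CNS glia genes summed to 2845 CPM, against 177.4 to 600.8 CPM and 235.4 to 818.7 CPM. Slc6a3, the dopamine transporter, was at 127.2 CPM there and at 0.0508 CPM or less in the other 5 normal libraries. Gad1, which makes the inhibitory transmitter GABA, was at 142.4 CPM there and at 1.25 CPM or less in the other 5. Both genes were picked after their values were seen. Its 14 sensory neuron genes summed to 1943 CPM, the lowest of all 12 libraries. For the 36 genes, the value without this library is given too where leaving it out changed the call or moved the log2 fold change by over 1.5 times. Skeletal muscle genes were highest in normal nerve replicate 3 and in plexiform neurofibroma replicate 1, at sums of 461.4 and 1813 CPM, and 0 of 7 tested passed the test (0 at an unadjusted p under 0.05, 0 with DESeq2, 0 with limma-voom).

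On average, the presynaptic genes took a smaller part of the tumour libraries than of the normal ones. Their counts summed to 1.065% to 1.27% of a normal nerve library, with a median of 1.14%, and to 0.905% to 1.09% of a plexiform neurofibroma library, with a median of 0.953%. The means were 1.15% ± 0.0778 and 0.984% ± 0.0834 (SD, n = 6 each), a ratio of 0.855. The ranges touched: 2 tumour libraries, replicates 3 and 5, lay inside the normal range. The normal maximum was in replicate 2, the library lowest in Schwann cell and fibroblast genes. Without Syt11, the member with the most counts over all 12 libraries, which was not called, the means were 1.03% and 0.855% and the groups did not overlap. The ratio of means was 0.854 without normal nerve replicate 6, whose own share lay inside the range of the other 5.

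Other neuronal genes were also measured at lower shares. The 16 genes of a neuronal structure list, such as the neurofilaments Nefl, Nefm and Nefh, made up 1.65% ± 0.282 of the normal libraries and 1.46% ± 0.171 of the tumours, a ratio of 0.882. The 14 sensory neuron genes made up 0.359% ± 0.0839 and 0.335% ± 0.0445, a ratio of 0.932. For both lists all 6 tumour libraries lay inside the normal range, which reached lowest in normal nerve replicate 6. Without that library the ratios were 0.842 and 0.857, next to 0.854 for the presynaptic genes. Per count on the structure genes, there were 0.711 ± 0.103 presynaptic counts in normal nerve and 0.678 ± 0.0252 in plexiform neurofibroma, and the normal mean was 0.672 without replicate 6. Per count on the sensory genes the values were 3.41 ± 1.11 and 2.97 ± 0.318, and the normal mean was 2.96 without replicate 6. The normal nerve replicate 6 ratios, 0.904 and 5.65, were the highest of all 12 libraries.

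**Figure D1:**
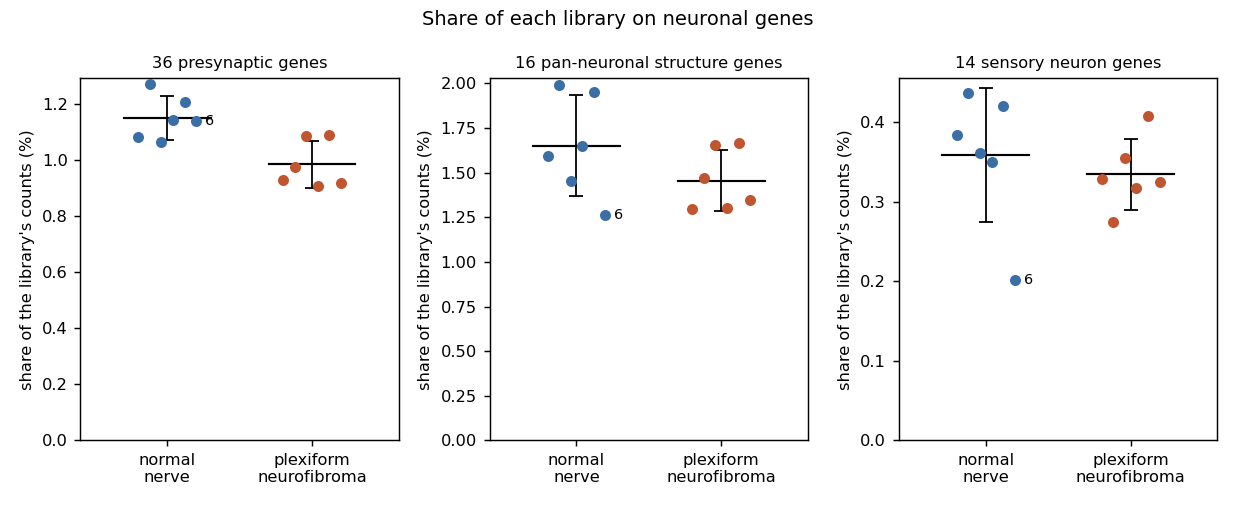
Share of each library's counts (percent, vertical axes from 0) on 36 presynaptic genes, 16 neuronal structure genes and 14 sensory neuron genes. Points are libraries, lines are group means, bars are ± SD (n = 6 each), and 6 marks normal nerve replicate 6. The presynaptic share averaged 1.15% in normal nerve and 0.984% in plexiform neurofibroma, and replicate 6 is the lowest normal library in the other 2 panels.

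Of the 36 presynaptic genes, 17 fell (47.2%), 2 rose (5.56%) and 17 did not pass the test. Over all 17236 tested genes, 8.63% fell and 10% rose. The log2 fold change was below 0 for 33 of the 36, against 52.5% of all tested genes, and the median was -0.42 against -0.02. The genes below 0 included 25 at an unadjusted p under 0.05. The libraries of the groups did not overlap for 10 members (27.8%), against 7.36% of all tested genes. The 8 that were lower in every tumour library (22.2%, against 3.06%) were Snap25, Syn2, Rims1, Rims2, Sncb, Dnm1, Nrxn2 and Pclo. The 2 that were higher in every tumour library (5.56%, against 4.3%) were Syn3 and Sncg. The 17 genes that fell were chosen by that test, and as a description they summed to 5261 to 6698 CPM in normal nerve and 3754 to 4735 CPM in tumours.

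Without normal nerve replicate 6, 21 members fell (58.3%, against 14.2% of all genes tested in that fit) and 2 rose (against 14.6%). Of the 21, 16 also fell with all 12 libraries. Groups then did not overlap for 13 members in the lower direction (36.1%, against 7.68%) and for 2 in the higher direction (5.56%, against 7.61%). The other neuronal lists moved more with this library. With all 12 libraries 1 of 16 structure genes fell, Map2, and 0 of 14 sensory neuron genes changed (1 at an unadjusted p under 0.05, 0 with DESeq2, 6 lower with limma-voom). Without replicate 6, 3 structure genes and 9 sensory neuron genes fell, and 1 structure gene rose. With the score of the structure genes as a covariate in edgeR, 0 members were called (12 lower and 4 higher at an unadjusted p under 0.05), and 0.162% of all genes were called lower and 0.435% higher. With a Schwann cell score in its place 0 were called (8 lower and 0 higher at an unadjusted p under 0.05), and 0.0696% and 0.0232% of all genes were. No other tool was run with these covariates. The group difference accounted for 42.3% of the variance of the first score and 62.7% of the second, so each covariate and the group can only in part be told apart.

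**Figure D2:**
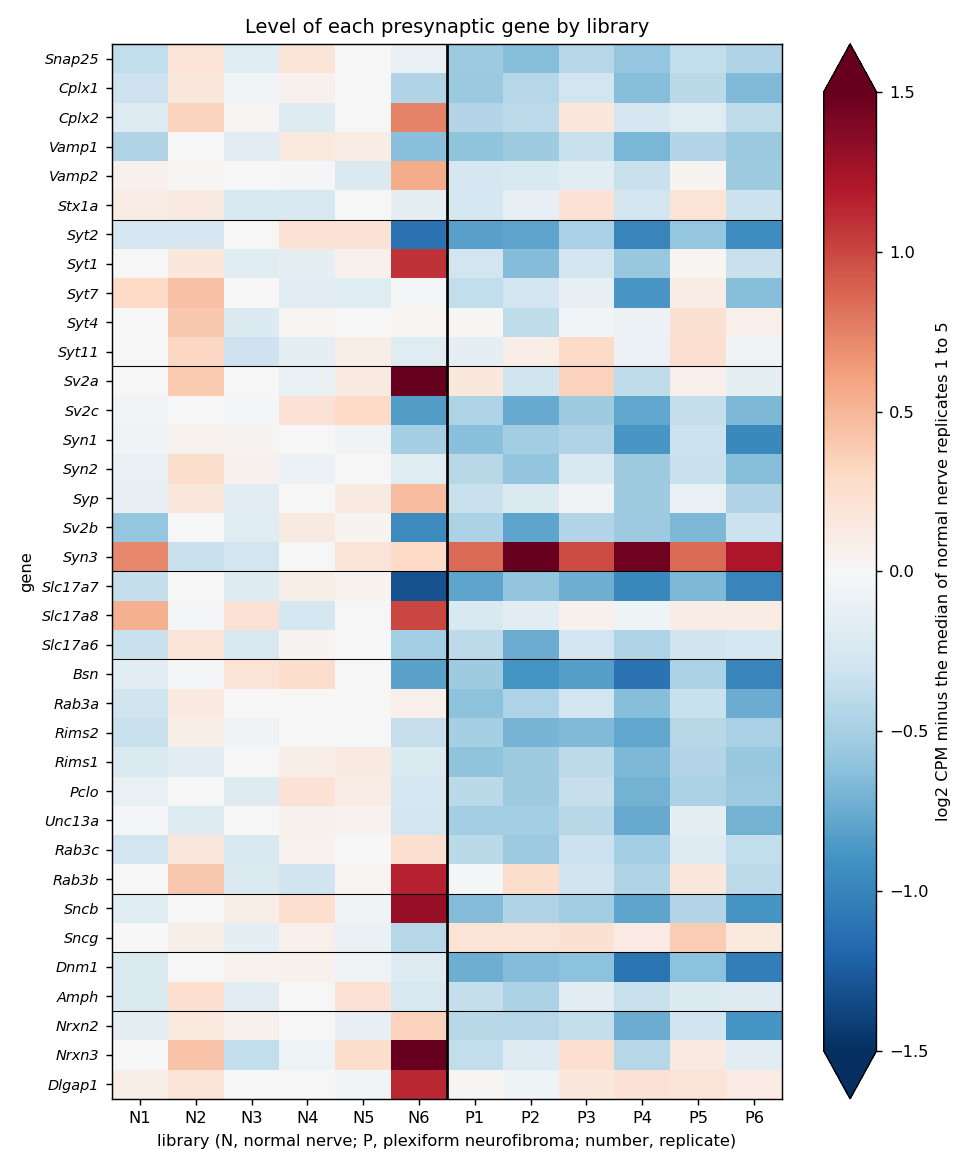
Each presynaptic gene (rows, ordered by role) in each of the 12 libraries (columns, N1 to N6 normal nerve, P1 to P6 plexiform neurofibroma). Colour is log2 CPM minus the median of normal nerve replicates 1 to 5, capped at 1.5 either way. The tumour columns are mostly blue, Syn3 is the red row among them, and N6 differs from N1 to N5 in both directions.

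Promoter sequence was read for the members, called or not. RE1 is the element through which the repressor REST keeps many neuronal genes silent outside neurons, and CRE is the cyclic AMP response element. The RefSeq table (GRCm38.p6) held 250 bases before to 50 bases after the start site for 29 of the 36 members, in 41 windows. Both strands were searched for exact matches only, so a site with a mismatch was not counted. An exact RE1 core was in none of the 41 windows and in 0.0365% of all 32851 windows. Its left arm TTCAGCACC, which overlaps the core, was in windows of Syn1 and Unc13a and in 0.371% of all windows. Its right arm, which overlaps the core too, was in Unc13a and in 0.137% of all windows. The CRE TGACGTCA was in Syn1 and in 1.79% of all windows. The GC box GGGCGGG was in 19 of the 41 member windows, from 18 members, and in 25.6% of all windows. TATAAA was in 3 of the 41, from Rab3b and Sv2b, and in 13.6% of all windows. The windows of Syn1 and Unc13a are shown because both genes fell with all 12 libraries and both hold an RE1 arm. Both genes also fell in every fit that left out 1 library. In Syn1 the capitals mark the left arm and the CRE, in that order, on the gene's own strand. The Syn1 letters that follow the left arm complete the RE1 core except for a mismatch. Syn1 therefore holds a near match to the core that the exact search did not count. The share of all windows with such a near match was not tested. The stretch is chrX:20921005-20921168 (minus strand), 250 to 87 bases before the RefSeq start site. That site lies inside the Syn1 gene span given below, which comes from another annotation. In Unc13a, within chr8:71671727-71671753 (minus strand), 5 to 31 bases after the start site, the capitals mark the right and the left arm as they read on the opposite strand. These matches are descriptions of the letters, and no binding was measured.
Syn1: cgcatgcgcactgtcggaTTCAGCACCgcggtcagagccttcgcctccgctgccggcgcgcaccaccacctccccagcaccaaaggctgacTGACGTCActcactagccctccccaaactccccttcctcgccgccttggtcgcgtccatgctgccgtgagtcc
Unc13a: GGCGCTGTCCgcgcccccGGTGCTGAA

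SNARE proteins pull the vesicle and the cell membrane together, and complexins clamp that complex until calcium enters. Of these 6 members 2 fell, Snap25 and Cplx1, and all 6 log2 fold changes were below 0. Snap25 (chr2:136713453-136782428), the membrane-anchored SNARE, ran from 1050 through a median of 1311 to 1572 CPM in normal nerve and from 874 through 962 to 1048 CPM in plexiform neurofibroma. Every tumour library was below every normal library, and the closest pair were normal nerve replicate 1 and plexiform neurofibroma replicate 5. Snap25 fell by 0.47 log2 (SE 0.104, edgeR adjusted p = 0.00986). Cplx1 (chr5:108518554-108550024), a complexin of fast synapses, ran from 652 through 879 to 992 CPM and from 561.8 through 633 to 728 CPM, and 3 tumour libraries lay inside the normal range. It fell by 0.41 log2 (SE 0.111, edgeR adjusted p = 0.0238), and the call was lost when N2, N3, N4, N5, P1, P4 or P6 was left out (highest adjusted p 0.0605; N for normal nerve, P for plexiform neurofibroma, with the replicate number).

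The other 4 of this group were not called with all 12 libraries. Vamp1, the vesicle SNARE prominent at the neuromuscular junction, ran from 441.5 through 646 to 757 CPM and from 425 through 470.2 to 544 CPM. Its normal minimum was replicate 6, and 5 tumour libraries lay inside the normal range (log2 fold change -0.38, edgeR adjusted p = 0.0564). Without normal nerve replicate 6 it fell by 0.46 log2 (adjusted p = 0.00677). Vamp2, the vesicle SNARE most used in the brain, had its normal maximum, 380.8 CPM, in that same replicate, against 224 to 272 CPM in the other 5 and 179.9 to 267 CPM in tumours. Its log2 fold change was -0.32 with all libraries (adjusted p = 0.0907) and -0.20 without replicate 6 (adjusted p = 0.116). Cplx2, the other complexin here, was likewise highest in replicate 6, at 479 CPM, and was at -0.39 (adjusted p = 0.11), and at -0.24 without that library (adjusted p = 0.164). Stx1a, a cell membrane syntaxin, averaged 21.1 ± 2.43 and 20.7 ± 3.65 CPM, a log2 fold change of -0.02 (SE 0.118, adjusted p = 0.913) that went to -0.04 without N6 (adjusted p = 0.858), and its sign turned without N1, N2, P1, P4 or P6. Vamp1 overlaps Tapbpl and Cd27 on the opposite strand, which averaged 11.1 and 0.496 CPM in normal nerve.

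Synaptotagmins are vesicle proteins, several of which are calcium sensors for release. Of 5 members 1 fell, Syt2 (chr1:134646677-134762593), a fast calcium sensor. Syt2 ran from 194 through 384 to 484 CPM in normal nerve and from 210.1 through 240.1 to 297 CPM in plexiform neurofibroma. The lowest normal library was replicate 6; the other 5 were all above every tumour library. It fell by 0.62 log2 (SE 0.187, edgeR adjusted p = 0.037), the call was lost when N2, N3, N4, N5, P1, P2, P4 or P6 was left out (highest adjusted p 0.0853), and without normal nerve replicate 6 it fell by 0.75 log2 (adjusted p = 0.00109). Syt2 overlaps Ppp1r12b on the opposite strand over 7936 bases of the whole genes, and overlap of their exons was not computed. Ppp1r12b also fell, from 75.6 ± 2.76 to 56.9 ± 3.87 CPM (edgeR adjusted p = 0.00167). Whether the authors counted by strand is not given in the sources used here, so reads of any shared exon cannot be told apart.

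Syt1, the fast sensor most used in the brain, showed the opposite library pattern to Syt2. It was at 460.3 CPM in normal nerve replicate 6, at 192 to 244 CPM in the other 5 and at 138 to 222 CPM in tumours. Its log2 fold change was -0.57 (adjusted p = 0.0713), and -0.32 without replicate 6 (adjusted p = 0.0529). Syt7, a slower sensor of high calcium affinity, was at -0.40 (adjusted p = 0.0964), with 2 tumour libraries inside the normal range. Syt4 and Syt11, synaptotagmins that do not act as calcium sensors of vesicle fusion, were at -0.07 (adjusted p = 0.683) and 0.09 (adjusted p = 0.613). The mean of Syt11 was 1196 ± 190 CPM in normal nerve against 1271 ± 162 CPM in tumours, and all 6 tumour libraries lay inside the normal range. Without replicate 6 its log2 fold change was 0.06 (adjusted p = 0.733).

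Synapsins coat vesicles and hold them in the reserve pool. Syn1 and Syn2 fell while Syn3 rose. Syn1 (chrX:20860511-20921004, minus strand), whose upstream sequence is printed above, ran from 226 through 316 to 332 CPM and from 165 through 216 to 256 CPM. Its lowest normal value was replicate 6, and 2 tumour libraries lay above it but below the other 5. It fell by 0.53 log2 (SE 0.122, edgeR adjusted p = 0.0117). Syn2 (chr6:115134902-115282006) ran from 122 through 135 to 166 CPM and from 89.0 through 100.1 to 118 CPM, with no overlap, and fell by 0.44 log2 (SE 0.0918, edgeR adjusted p = 0.00746).

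Syn3 (chr10:86055125-86498896, minus strand), the synapsin best known from developing neurons, ran from 155 through 209.5 to 323 CPM in normal nerve and from 352 through 418 to 574 CPM in plexiform neurofibroma. Every tumour library was above every normal library, and the highest normal library was replicate 1. Syn3 rose 2.05-fold (log2 fold change 1.03, SE 0.188, edgeR adjusted p = 0.00471), and was called in all 12 fits that left out a library. Per kilobase of longest transcript, the ratio of Syn3 to Syn1 averaged 0.50 ± 0.181 in normal nerve and 1.49 ± 0.478 in plexiform neurofibroma, with ranges of 0.319 to 0.728 and 0.938 to 2.10. The same ratio of Syn2 to Syn1 averaged 0.388 ± 0.044 and 0.414 ± 0.0468, with 4 tumour libraries inside the normal range. The call of Syn3 was lost with the structure gene score as a covariate (0.75, edgeR adjusted p = 0.125) and with the Schwann cell score (0.47, adjusted p = 0.35). The Schwann cell genes had a median sum of 9702 CPM in normal nerve and 18841 CPM in plexiform neurofibroma. Their sums overlapped between the groups: normal nerve replicate 1, at 15562 CPM, was above plexiform neurofibroma replicates 3 and 5, at 14162 and 14374 CPM. The part of these genes in the rise of Syn3 was not tested.

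Each synapsin gene holds a TIMP gene, an inhibitor of matrix metalloproteinases, on its opposite strand. Timp1 (chrX:20870166-20874735) lies in Syn1, and rose from 1.26 ± 0.609 to 5.68 ± 2.48 CPM (4.45-fold, edgeR adjusted p = 0.00473), opposite to its host. Timp4 (chr6:115241892-115252205) lies in Syn2 and averaged 7.40 ± 11.4 and 3.17 ± 1.43 CPM, with 30.5 CPM in normal nerve replicate 6 (adjusted p = 0.245). Timp3 (chr10:86300372-86349506) lies in Syn3 and averaged 206 ± 65.7 and 279 ± 51.0 CPM, 3 tumour libraries being inside the normal range (1.36-fold, adjusted p = 0.142). Per kilobase, Timp3 and Syn3 were at 43.6 and 45.3 CPM in normal nerve, against 59.1 and 92.6 CPM in tumours, and both were highest among normal libraries in replicate 1. The positions are those of whole genes, and overlap of exons was not computed. Strand setting in the authors' counting is not given in the sources used here. Any Timp3 reads in the count of Syn3 therefore cannot be told apart from Syn3 reads.

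**Figure D3:**
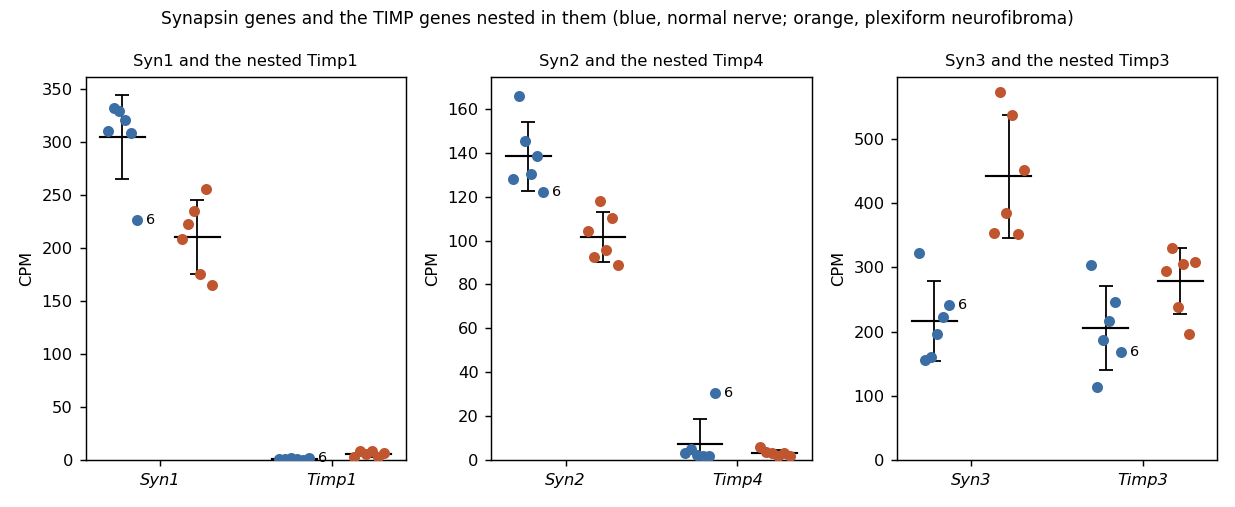
CPM (vertical axes from 0, a scale for each panel) of each synapsin gene and the TIMP gene nested in it, by library; lines and bars are mean ± SD, n = 6 each, and 6 marks normal nerve replicate 6. Syn1 averaged 305 and 210.4 CPM, Syn2 138 and 102 CPM, and Syn3 216.5 and 442 CPM in normal nerve and plexiform neurofibroma.

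Synaptophysin and the SV2 proteins span the vesicle membrane. Syp, synaptophysin, ran from 248.8 through 293 to 384 CPM and from 193 through 231.5 to 269.8 CPM, with 2 tumour libraries inside the normal range. It fell by 0.36 log2 (SE 0.118, edgeR adjusted p = 0.0474). The call was lost when N2, N4, N5, N6, P1, P2, P4 or P6 was left out (highest adjusted p 0.108), and the log2 fold change was -0.28 without N6 (adjusted p = 0.0532). Sv2c (chr13:95954594-96132577), an SV2 of few brain regions, ran from 382 through 678 to 842 CPM and from 399 through 451 to 532 CPM. Its lowest normal library was replicate 6, and the other 5, from 667 CPM, were above every tumour library. Sv2c fell by 0.56 log2 (SE 0.157, edgeR adjusted p = 0.0266), lost its call when N4, N5, P2, P4 or P6 was left out (highest adjusted p 0.0651), and fell by 0.68 log2 without replicate 6 (adjusted p = 0.000681).

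Sv2a, the SV2 found at nearly all synapses of the brain, gave the widest fold change below 0 and was not called. It was at 284.2 CPM in normal nerve replicate 6, 7.11 times the median of the other 5, which ran from 37.1 to 52.5 CPM. Tumour libraries ran from 30.8 to 50.7 CPM. Its log2 fold change with that library, -1.07 (SE 0.514, edgeR adjusted p = 0.159), went to -0.11 (adjusted p = 0.573) without it. Sv2b, the SV2 of many excitatory neurons, was lowest in replicate 6 at 191 CPM, and was at -0.32 (adjusted p = 0.179) with that library and fell by 0.44 log2 (adjusted p = 0.0182) without it.

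Vesicular glutamate transporters load glutamate into vesicles. None of the 3 was called with all 12 libraries (2 lower at an unadjusted p under 0.05; 1 lower with DESeq2 and 2 with limma-voom). Slc17a7 (VGLUT1) ran from 69.3 through 160.4 to 182 CPM in normal nerve and from 86.4 through 100.8 to 113 CPM in plexiform neurofibroma. Normal nerve replicate 6 was below every tumour library, and the other 5 were above all of them. The log2 fold change was -0.56 (edgeR adjusted p = 0.054), and Slc17a7 fell by 0.71 log2 without replicate 6 (adjusted p = 0.000652). Slc17a6 (VGLUT2) averaged 249.8 ± 44.7 and 206 ± 24.1 CPM; it was at -0.28 (adjusted p = 0.124) and fell by 0.34 log2 without replicate 6 (adjusted p = 0.0324). Slc17a8 (VGLUT3) was the member with the fewest counts, at 6.08 ± 2.11 and 4.84 ± 0.478 CPM (-0.33, adjusted p = 0.248), and its highest library was replicate 6. Without that library it was at -0.14 (adjusted p = 0.517).

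RAB3 proteins mark docked vesicles, and the large active zone proteins tether and prime them. Of these 8 members 7 fell and Rab3b did not pass the test, and all 8 log2 fold changes were below 0. Rims1 (chr1:22286251-22805994), which links RAB3 to calcium channels, ran from 59.8 through 65.6 to 76.2 CPM and from 43.6 through 47.4 to 53.0 CPM. All 6 tumour libraries were below all normal ones, and Rims1 fell by 0.48 log2 (SE 0.0803, edgeR adjusted p = 0.00325). Rims2, its paralog, ran from 22.7 through 28.3 to 30.9 CPM and from 16.7 through 19.3 to 21.6 CPM, again with no overlap, and fell by 0.49 log2 (SE 0.0968, adjusted p = 0.00623). Pclo, the scaffold piccolo, ran from 197 through 227 to 274 CPM and from 144 through 166 to 185.5 CPM without overlap, and fell by 0.47 log2 (SE 0.0922, adjusted p = 0.00629).

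Bsn (chr9:108096022-108190384), the partner scaffold bassoon, ran from 108 through 186 to 225 CPM and from 87.3 through 103 to 135 CPM. Normal nerve replicate 6 was the lowest normal library and lay within the tumour range, and the other 5 were above it. Bsn fell by 0.74 log2 (SE 0.166, edgeR adjusted p = 0.0108). Unc13a, the priming factor MUNC13-1 whose sequence after the start site is printed above, averaged 118 ± 11.1 and 87.6 ± 13.7 CPM, with 1 tumour library inside the normal range, and fell by 0.43 log2 (SE 0.102, adjusted p = 0.013). Rab3a, the main neuronal RAB3, averaged 288 ± 28.9 and 204 ± 26 CPM and fell by 0.49 log2 (SE 0.0972, adjusted p = 0.00623). Rab3c averaged 399 ± 56.7 and 305 ± 27.6 CPM and fell by 0.39 log2 (adjusted p = 0.0195), a call that was lost without plexiform neurofibroma replicate 4 (adjusted p = 0.0507). Rab3b, at 12.8 ± 5.61 and 9.94 ± 2.08 CPM, was highest in normal nerve replicate 6 and was at -0.37 (adjusted p = 0.289), and at -0.10 without that library (adjusted p = 0.669). The difference of this group from the other roles was not tested.

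The synucleins, small proteins that bind vesicle membranes, moved in opposite directions. Sncb (chr13:54758860-54766595), beta-synuclein, ran from 59.8 through 70.1 to 169 CPM in normal nerve and from 36.8 through 45.5 to 50.3 CPM in plexiform neurofibroma. All tumour libraries were below all normal ones, and the highest normal library was replicate 6. Sncb fell by 0.95 log2 (SE 0.232, edgeR adjusted p = 0.016), and by 0.64 log2 without replicate 6 (adjusted p = 0.00107). Sncg (chr14:34370274-34374789), gamma-synuclein, abundant in sensory neurons, ran from 819 through 1069 to 1172 CPM and from 1201 through 1276 to 1440 CPM. All tumour libraries were above all normal ones, and replicate 6 was the lowest. Sncg rose 1.23-fold (log2 fold change 0.29, SE 0.093, edgeR adjusted p = 0.0431), a call held in only 2 of the 12 fits that left out a library, those without normal nerve replicate 2 or 6 (highest adjusted p 0.0855). Per kilobase, the ratio of Sncb to Sncg averaged 0.055 ± 0.0369 in normal nerve, 0.0400 ± 0.00469 there without replicate 6, and 0.0218 ± 0.00196 in tumours, and the groups did not overlap.

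Vesicle retrieval was represented by dynamin and amphiphysin. Dnm1 (chr2:32308471-32353338), dynamin 1, the GTPase that cuts vesicles from the membrane, had the smallest adjusted p of all members. It ran from 407 through 466.1 to 498 CPM in normal nerve and from 222 through 295 to 310.5 CPM in plexiform neurofibroma. The gap between the groups was wider than the spread within either, and the lowest tumour libraries were replicates 4 and 6. Dnm1 fell by 0.72 log2 (SE 0.102, edgeR adjusted p = 0.00167), and the fold was 0.606. Amph, amphiphysin, which recruits dynamin, averaged 183 ± 27.8 and 151 ± 12.2 CPM, with 3 tumour libraries inside the normal range. It was at -0.27 (adjusted p = 0.0683), and fell by 0.31 log2 without normal nerve replicate 6 (adjusted p = 0.0264).

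Neurexins are adhesion proteins of the presynaptic membrane, and Dlgap1 is a scaffold of the postsynaptic side. Nrxn2 (chr19:6418731-6544169) ran from 162 through 184 to 229 CPM and from 97.4 through 134 to 146 CPM. No tumour library reached a normal one, and Nrxn2 fell by 0.56 log2 (SE 0.116, edgeR adjusted p = 0.00709). Nrxn3 was at 215 CPM in normal nerve replicate 6, at 59.2 to 103 CPM in the other 5 and at 56.9 to 90.9 CPM in tumours. Its log2 fold change was -0.53 (adjusted p = 0.191), and -0.18 without that library (adjusted p = 0.418). Dlgap1 was at 140 CPM in replicate 6 and at 62.2 to 72.7 CPM in the other 5, with tumours at 61.1 to 73.9 CPM. It was at -0.19 (adjusted p = 0.493), and at 0.06 without that library (adjusted p = 0.547).

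**Figure D4:**
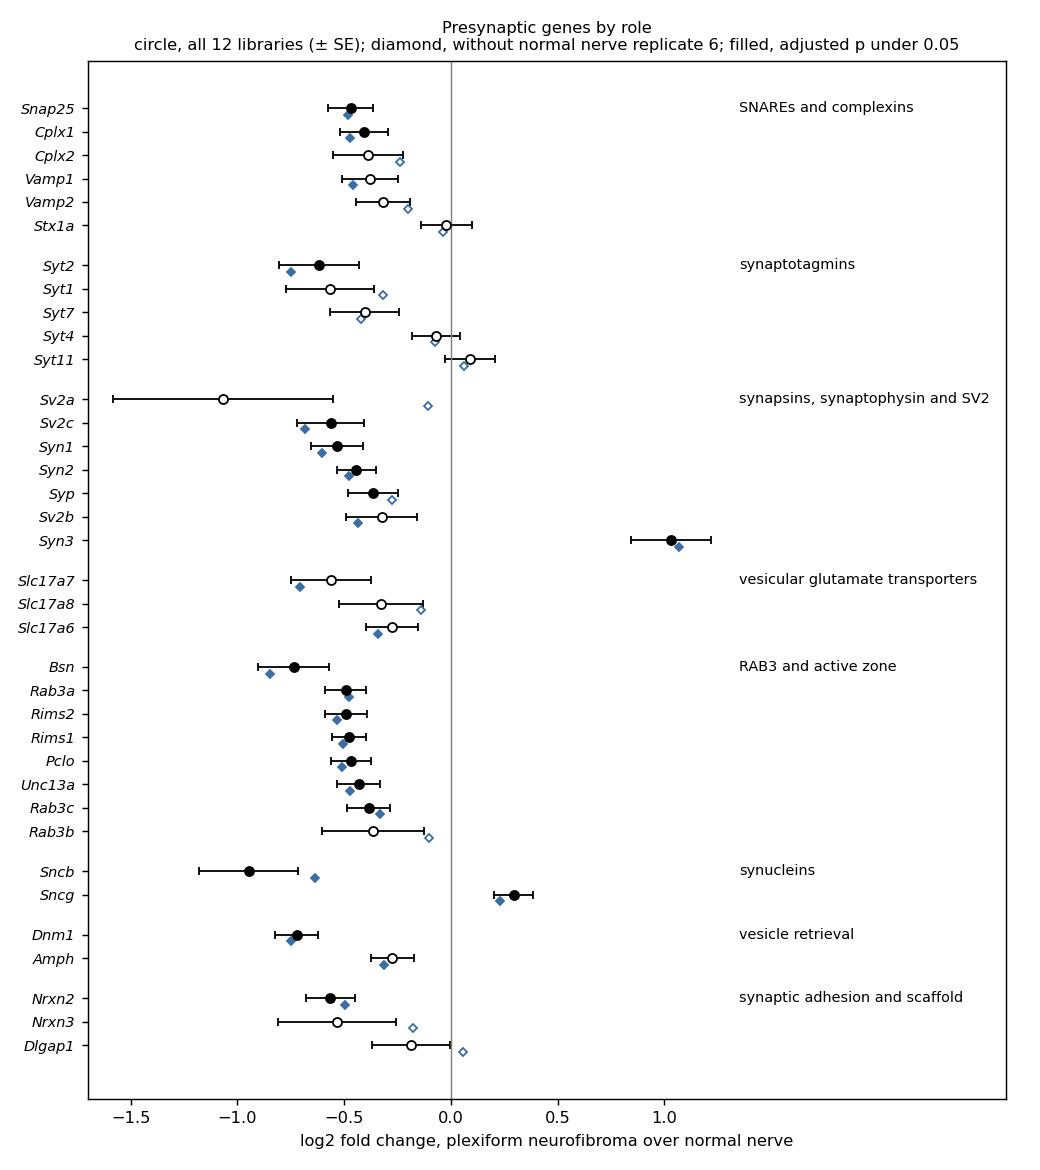
log2 fold change of each presynaptic gene, plexiform neurofibroma over normal nerve, by role. Circles are fits of all 12 libraries with bars of ± SE, diamonds are fits without normal nerve replicate 6, and filled symbols have an edgeR adjusted p under 0.05. Sv2a moves from -1.07 to -0.11 without that library, and Dnm1 stays near -0.72.

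The members differed widely in level. On the scale of mean CPM per kilobase in normal nerve, Sncg was at 1233, Cplx1 at 385, Snap25 at 273, Syt11 at 238 and Rab3a at 185. At the other end stood Slc17a8 at 1.36, Rab3b at 3.86, Rims2 at 5.62 and Stx1a at 9.71. In plexiform neurofibroma Sncg was at 1510, Cplx1 at 290, Syt11 at 253 and Snap25 at 197 on the same scale, so Snap25 and Syt11 changed places in the order. The 5 members with most counts, Syt11, Sncg, Snap25, Cplx1 and Sv2c, held 43.6% ± 2.83 of member counts in normal nerve and 47.4% ± 0.29 in tumours, and the groups did not overlap. The members have long transcripts: the median of the longest was 4788 bases, against 3193 for all tested genes and 4672 for genes called lower. After a correction for transcript length 13 members fell and 1 rose, Syn3, against 6.47% and 8.54% of all genes.

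Normal nerve replicate 6 departed from the other normal libraries in both directions. Of the 36 members, 12 were above the range of the other 5, 15 were below it and 9 were within it. By the same count, normal nerve replicates 1 to 5 were highest of their group for 1, 13, 0, 8 and 2 members. They were lowest for 7, 1, 6, 4 and 3. The same counts over all tested genes were not made, so these have no background share beside them. Besides Sv2a, those above it by the widest ratio to the median of the other 5 were Nrxn3 (2.82), Sncb (2.48), Rab3b (2.22), Dlgap1 (2.19) and Syt1 (2.11). Those below it by the widest ratio were Slc17a7 (0.405), Syt2 (0.465), Sv2b (0.516), Sv2c (0.558) and Bsn (0.574). In 9 ratios of related genes per kilobase, this library lay above the range of the other 5 in 8 and below it in 1. The pairs, and which gene was divided by which, were set by hand. Swapping the genes of a pair swaps above and below, so the split between the sides carries no result of its own. Among those above, Sv2a per Sv2c was 1.56 in replicate 6, 0.0979 to 0.161 in the other 5 and 0.162 to 0.226 in tumours. Syt1 per Syt2 was 3.38 there, 0.584 to 0.993 in the other 5 and 0.816 to 1.14 in tumours. Vamp2 per Vamp1 was 2.23 there, 0.788 to 1.40 in the other 5 and 0.998 to 1.37 in tumours. The ratio that lay below was Slc17a7 per Slc17a6, at 0.486 there, 0.741 to 0.876 in the other 5 and 0.513 to 0.939 in tumours. The CNS genes given above were high in the same library, and their part in these ratios was not tested.

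**Figure D5:**
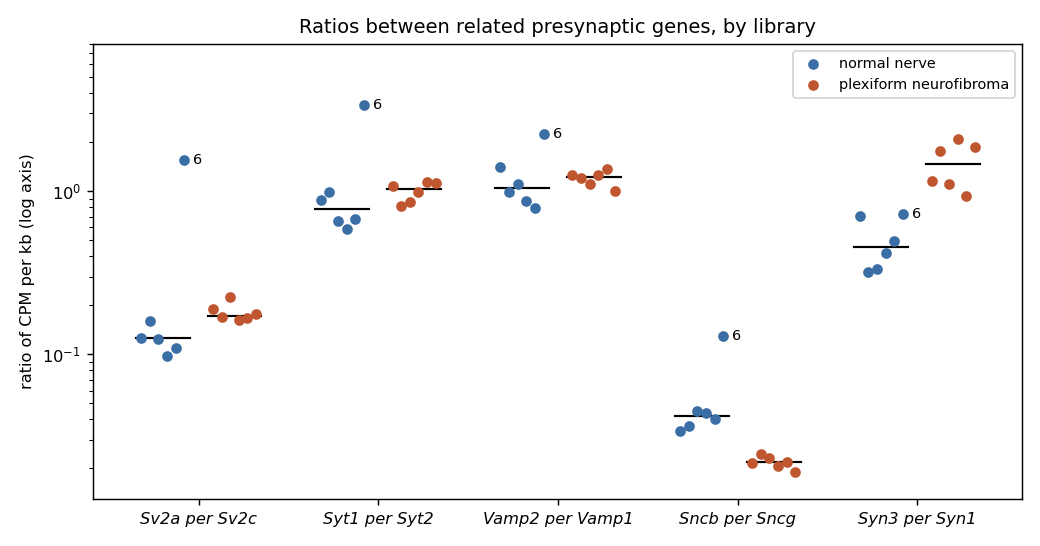
Ratio of CPM per kilobase between related presynaptic genes (log axis) in each library; black lines are group medians and 6 marks normal nerve replicate 6. For Sv2a per Sv2c replicate 6 is at 1.56 and the other 5 normal libraries are at 0.0979 to 0.161; for Sncb per Sncg and Syn3 per Syn1 the groups do not overlap.

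Other genes of the same cycle, and postsynaptic partners outside it, were read from 6 further lists, of which 102 of 108 genes were tested. Of the 102, 42 fell (41.2%) and 4 rose (3.92%), beside 8.63% and 10% of all genes. These counts include the postsynaptic partners, of which 7 of 16 fell. In the list of other active zone and priming proteins 14 of 20 fell and 0 rose (0 at an unadjusted p under 0.05, 0 with DESeq2 and limma-voom). Among them Erc2, the scaffold CAST, fell by 0.52 log2 (SE 0.0898, edgeR adjusted p = 0.00357), Rimbp2, which ties RIM to calcium channels, by 0.56 (SE 0.0982, adjusted p = 0.00395) and Ppfia4, a liprin, by 0.41 (SE 0.0772, adjusted p = 0.00499). In the list of other synaptotagmins and calcium sensors 4 of 13 fell, among them Rph3a, a RAB3 effector (-0.53, adjusted p = 0.0121), Syt14 (-0.43, adjusted p = 0.00979) and Syt3 (-0.45, adjusted p = 0.0142).

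The list of other SNARE proteins and their handling factors moved both ways: of 18 tested, 5 fell and 3 rose. Stxbp5, tomosyn, which competes for SNARE partners, fell by 0.40 log2 (SE 0.0721, edgeR adjusted p = 0.00407). The 3 that rose are known from release and membrane traffic in many cell types outside neurons. Vamp8 rose 1.83-fold (SE 0.154 log2, adjusted p = 0.00395), Vamp3 1.68-fold (SE 0.167 log2, adjusted p = 0.0104) and Stx4a 1.21-fold (SE 0.0853 log2, adjusted p = 0.0384). The call of Stx4a was lost when N2, N3, N4, N5, P2, P3, P4 or P6 was left out (highest adjusted p 0.0831).

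In the list of other vesicle membrane proteins 6 of 14 fell and 1 rose. Syngr1, the synaptogyrin of neurons, fell by 0.60 log2 (SE 0.0979, edgeR adjusted p = 0.00299), and Syngr2, the synaptogyrin of other cells, rose 1.65-fold (SE 0.133 log2, adjusted p = 0.00477). Atp6v0a1, a subunit of the proton pump that drives filling, fell by 0.43 log2 (adjusted p = 0.0126). Svop fell by 0.39 log2 (adjusted p = 0.0261), a call lost when N3, N5, P2, P4 or P6 was left out (highest adjusted p 0.0623). Of 21 endocytosis proteins 6 fell and 0 rose (2 at an unadjusted p under 0.05, 0 with DESeq2 and limma-voom). Pacsin1, Synj1 and Ap2a1, which bend, uncoat and select membrane, fell by 0.68, 0.62 and 0.62 log2 (adjusted p = 0.00325, 0.00205 and 0.00329). Of 16 postsynaptic partners 7 fell, among them Shank3 (-0.89, adjusted p = 0.00475), Dlg4 (-0.65, adjusted p = 0.0066) and Dlg2 (-0.58, adjusted p = 0.00595).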

How the data were processed

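Expected counts, which the authors deposited without normalization, were read for each gene symbol in 12 samples, and columns were matched to samples by title. Per the submitters' processing notes the tools were FastQC, STAR 2.4.2a, Salmon 0.60 and DESeq2, and the build was mm10; their roles and order are not stated there. No source used here gives the annotation or the strand setting. Per the labels' protocols, polyA RNA was sequenced, and 2 kits are named, so the kit of a library is uncertain. Within a tolerance of 0.001, 84.1% to 86.5% of each library's deposited counts were whole, with symbols at 0 included as whole. Such estimates divide reads among near-identical genes, so values of paralogs are uncertain.

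Counts were rounded and filtered with filterByExpr, which left 17236 genes. Groups were compared with edgeR 4.0.16 (R 4.3.3) by its quasi-likelihood F test, robust, on TMM factors and without covariates. Benjamini-Hochberg adjustment ran over all genes tested, and calls were made at an adjusted p under 0.05. Where no tool is named, an adjusted p is from edgeR. The standard error is the size of the log2 fold change divided by the root of F. CPM per kilobase uses the longest transcript in GENCODE vM21 on GRCm38, the assembly of mm10, to which 45187 of 47480 symbols matched directly and 620 through an older symbol. Gene coordinates come from that annotation, are 1-based and cover whole genes.

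Alternatives were RLE factors, upper-quartile factors, tests without the filter or with 1 that asks for CPM above 1 in 6 samples, DESeq2 1.42.0, limma 3.58.1 (voom with sample weights), covariates (sensory neuron, CNS and muscle scores), a length correction (lowess span 0.3) and leaving out each library. Structure gene and Schwann cell scores as covariates, and 2 fits without several libraries, were chosen after seeing the data. A score is the mean log2 CPM (prior count 2). The members, lists and tests were chosen with earlier results of these data known. All members are named, with up to 3 called genes in each direction from each further list in order of p-value, and genes that overlap a member. Some genes that this rule names are not reported here. On data simulated for this comparison (17236 genes) the test found 53.7% of 1.5-fold changes, 88.1% of 2-fold changes and 95.5% of 4-fold changes. Unchanged genes made up 4.82% of its calls, and with no gene changed it made 1 call. The simulation changed only a small part of the genes, all at a mean CPM of at least 5. It drew each gene independently and set no library apart. These rates therefore do not cover many changed genes or a library that shifts many genes together.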

Additional observations from a re-analysis of the deposited data

Results flagged for a closer look

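In each group of 6 libraries, a library was singled out where its gap to the nearest other, divided by the range of the group, was above 0.625, the critical value of Dixon's test. Of 72 groups (36 genes in 2 groups) 10 held such a library, and 8 of the 10 were normal nerve replicate 6. Chance gives about 1 in 20 for independent groups. These groups are not independent, because all 36 genes were read in the same libraries, so the 10 cannot be set against that rate. In that library Sv2a was at 284.2 CPM, with the nearest other normal library at 52.5 CPM. Syt1 was at 460.3 CPM (nearest 244), Nrxn3 at 215.1 CPM (nearest 103), Sncb at 168.6 CPM (nearest 81.4), Dlgap1 at 139.6 CPM (nearest 72.7), Vamp2 at 380.8 CPM (nearest 272) and Rab3b at 23.61 CPM (nearest 14.1). Syn1 stood out there in the other direction, at 226.3 CPM (nearest 309). The other 2 were Syt4 in normal nerve replicate 2 at 396.1 CPM (nearest 306) and Rab3a in normal nerve replicate 1 at 234.7 CPM (nearest 288). Of these genes, Syn1, Rab3a and Sncb were called lower with all 12 libraries and in each of the 12 fits that left out a library.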

How the results depend on the processing

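No paired analysis was possible because the labels give no pairing of samples between the groups. The replicate numbers used here follow the order of the samples and do not come from the labels. The count of members that fell stayed within 1.5 times of 17 under the alternatives of scaling, filter, tool, length and the sensory, CNS and muscle scores, and ran from 12 to 21 when a library was left out. It was 0 with the structure gene score and 0 with the Schwann cell score as covariates, where the median log2 fold change of the members was -0.27 and -0.19. The count that rose was 1 without a filter, with the muscle score, with the length correction and without the libraries highest in CNS and muscle transcripts, 1 to 2 when a library was left out, and 0 with the structure gene or Schwann cell score. Over all genes, 3218 were called, and 5565 with limma-voom, 103 with the structure gene score and 16 with the Schwann cell score; leaving out plexiform neurofibroma replicate 4 gave 1893, normal nerve replicate 5 gave 2098 and normal nerve replicate 6 gave 5031, the last being the highest and the first the lowest of the 12 such fits. In the further lists, postsynaptic partners included, 4 genes rose, and 8 did with limma-voom and 7 with the CNS score. The count was 7 without N2 and N6 (N for normal nerve) and 7 without N6 alone. It was 0 with the structure gene or Schwann cell score (5 and 3 at an unadjusted p under 0.05). There 42 fell, and 26 (without plexiform neurofibroma replicate 4) to 50 (without N6) when a library was left out, 0 with the structure gene score (32 at an unadjusted p under 0.05) and 1 with the Schwann cell score. The cause was not tested in any of these cases. The mean share of counts was 1.03% and 0.855% without Syt11, and the shares were the same when mitochondrial symbols, all at 0, were left out. All members had a mean CPM of at least 5, so the share over only those members was the same, and the share without them could not be computed.

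The log2 fold change turned above 0 for 9 members, none of them called except Syp. With the Schwann cell score it was 0.0547 for Syt1, 0.218 for Syt4, 0.00123 for Syp, 0.688 for Sv2a, 0.111 for Stx1a, 0.239 for Rab3b, 0.184 for Cplx2, 0.344 for Nrxn3 and 0.274 for Dlgap1. With the structure gene score it was 0.156 for Syt4 and 0.24 for Stx1a, and with the sensory score 0.014 for Stx1a. Without N2 and N6 it was 0.0242 for Syt4, 0.00929 for Stx1a, 0.019 for Rab3b and 0.0935 for Dlgap1. Dlgap1 was at 0.0491 with limma-voom, and 0.0622 without the libraries highest in CNS and muscle transcripts. When 1 library was left out, Dlgap1 ran from -0.245 to 0.0585 (above 0 without N6 alone), Syt4 from -0.126 to 0.0184 (above 0 without N2 alone) and Stx1a from -0.0911 to 0.0263 (above 0 in 5 of the 12 fits, the lowest of these at 0.0129). Of 1507 pairs of a named gene and a setting, 1297 kept direction and call, 151 lost a call, 34 gained one and 25 turned. The lowest member count in a library was 59 (Slc17a8) and the next lowest member had 125 (Rab3b), so counting error weighs most on these 2.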

Other observations

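Transmitter peptides leave neurons from dense-core vesicles, which share part of the release machinery described above. Of 8 listed dense-core vesicle genes 3 fell, Chga (chromogranin A, -0.46, edgeR adjusted p = 0.0144), Chgb (chromogranin B, -0.50, adjusted p = 0.0159) and Pcsk2, a prohormone convertase (-0.34, adjusted p = 0.0335), and the median of the list was -0.31. The mean of Chga was 187.5 ± 19.5 CPM in normal nerve against 136.5 ± 22.6 CPM in plexiform neurofibroma (SD, n = 6 each). The peptide genes of sensory neurons were measured above 0 in log2 fold change, Calca at 0.28 (adjusted p = 0.265) and Tac1 at 0.31 (adjusted p = 0.218), and neither was called. The listed dense-core genes summed to 2548 CPM in normal nerve replicate 6, the highest of all 12 libraries.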
